A study of Mus musculus with 4 samples.

Results

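Intronic circles whose 3′ end lay within 50 nt of the 3′ end of their intron were examined in C2C12, a line of mouse muscle precursor cells that form multinucleate myotubes in low serum. The circles were chosen by position alone: from every junction listed as an intronic circle, those ending 0 to 50 nt upstream of the last base of the listed intron were kept, so read numbers played no part. The rule gave 601 circles in 245 introns, which is 0.924% of the 65062 intronic circles and 3.12% of the 7859 introns that gave one. A circle is a distinct chromosome, start, end and strand, and the whole series lists 69136 of them, intronic and exonic.

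Both groups were cultures of the same line kept in medium with 2% horse serum for 3 to 4 days to differentiate. The 2 RPAD libraries were made from RNA digested with RNase R for 30 min, tailed with poly(A) polymerase and freed of poly(A)+ RNA on oligo-dT beads, steps meant to leave circular RNA. The 2 total RNA libraries were made from RNA that did not go through RPAD, and ribosomal RNA was removed from all 4 before amplification. Nothing in the labels says whether libraries of 1 group came from separate cultures, so the spread between them may be technical. The protocol text names HeLa RNA for the RNase R step although all samples are labelled C2C12.

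When an intron is spliced out, it leaves as a lariat: its 5′ end is joined by a 2′-5′ bond to the branch point, an adenosine a short way upstream of the 3′ splice site. A debranching enzyme normally opens the lariat, and introns that escape can lose the tail beyond the branch point and persist as intronic circular RNA. A read that crosses the branch looks like a back-splice from the 5′ splice site to the branch point. Such a read alone therefore does not separate an intact lariat from a trimmed circle. A circle formed from the whole intron would instead have its junction at the last base of the intron.

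All 65062 intronic circles started at the 5′ end of their intron, so the 3′ end was the only free coordinate. Introns are named here by their mm9 position, as the files pair no gene symbol with them, and 0 of the 120 ENSMUST transcript names among the 601 circles could be matched to a symbol. Markers of myoblasts and myotubes could not be read for the same reason. Of the 601 circles, 259 lay in introns of ENSMUST transcripts. The other 342, or 56.9%, lay in introns of transcripts whose names begin with PREDICTED, here called assembled models. Among the intronic circles that ended elsewhere, this share was 35.3%. Whether these models were assembled from the reads of these libraries was not tested. The 3′ splice site in the description of the set is thus the listed end of an intron, and for 1 mitochondrial model with 37 of the circles it cannot be a splice site of a known intron, since mammalian mitochondrial genes have none.

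Back-splice reads came to 150478 in RPAD 1, 191246 in RPAD 2, 38850 in total RNA 1 and 35981 in total RNA 2. A count of 0 allows up to 3 reads, which is 19.9 and 15.7 per 1000000 back-splice reads in RPAD 1 and 2, and 77.2 and 83.4 per 1000000 in total RNA 1 and 2. These limits and the exact Clopper-Pearson 95% intervals given below cover counting error only, since the libraries carry no molecular identifiers that would tell PCR copies apart.

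Fewer of these circles were listed after RPAD than in total RNA, although the RPAD libraries held more back-splice reads. RPAD 1 listed 99 and RPAD 2 listed 64 of the 601 circles, against 250 in total RNA 1 and 211 in total RNA 2. They lay in 26 and 20 introns in the RPAD libraries, against 111 and 105 introns in the total RNA libraries. The groups did not overlap in either count. The mean was 81.5 ± 24.7 circles in RPAD and 230.5 ± 27.6 in total RNA (SD, n = 2 each), a difference of -149 with an exact two-sided permutation p of 0.333, the smallest that 2 libraries against 2 can give. With every library brought to 35981 back-splice reads, the number expected was 51.9 and 26.2 circles in RPAD 1 and 2, against 238 and 211 in total RNA 1 and 2. The difference was -34.5 among circles with at least 2 reads and 5 among circles with at least 5 reads, so most of it lay in circles with 1 read.

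The circles also took a smaller share of intronic reads after RPAD. Of the back-splice reads on intronic circles, they held 0.727% in RPAD 1 (95% interval 0.674 to 0.783) and 0.206% in RPAD 2 (0.179 to 0.237). In total RNA they held 3.06% in library 1 (2.84 to 3.29) and 1.87% in library 2 (1.69 to 2.07). The intervals of the RPAD libraries lay below those of total RNA, and also apart from each other. The mean share was 0.467% ± 0.368 in RPAD and 2.47% ± 0.836 in total RNA (SD, n = 2 each), a difference of -2.00 percentage points (exact two-sided permutation p = 0.333). Leaving out the mitochondrial model, which had reads in total RNA 1 alone, the shares were 0.727% and 0.206% in RPAD 1 and 2, against 1.85% and 1.87% in total RNA 1 and 2. As a share of the intronic circles listed, rather than of their reads, the circles made up 0.662% and 0.250% in RPAD 1 and 2, against 1.49% and 1.44% in total RNA 1 and 2. With the limit set at 100 nt, this share was 0.969% and 0.624% in RPAD 1 and 2, against 2.65% and 2.48% in total RNA 1 and 2. Whether the lower share is particular to the last 50 nt was not tested. Each of these shares is relative to the other intronic circles, so a loss of these circles and a gain of the others cannot be told apart.

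Absolute reads on the circles overlapped between the groups. They came to 687 in RPAD 1 and 205 in RPAD 2, against 693 in total RNA 1 and 386 in total RNA 2. A listed circle carried 6.94 and 3.20 reads on average in RPAD 1 and 2, against 2.77 and 1.83 in total RNA 1 and 2. The difference of 2.77 reads per circle (exact two-sided permutation p = 0.333) shrank to 0.0579 once the libraries were brought to the same number of reads. In RPAD 1, 256 of the 687 reads belonged to 1 circle, and the circle with most reads had 16 reads in RPAD 2, against 45 and 26 in total RNA 1 and 2.

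**Figure D1:**
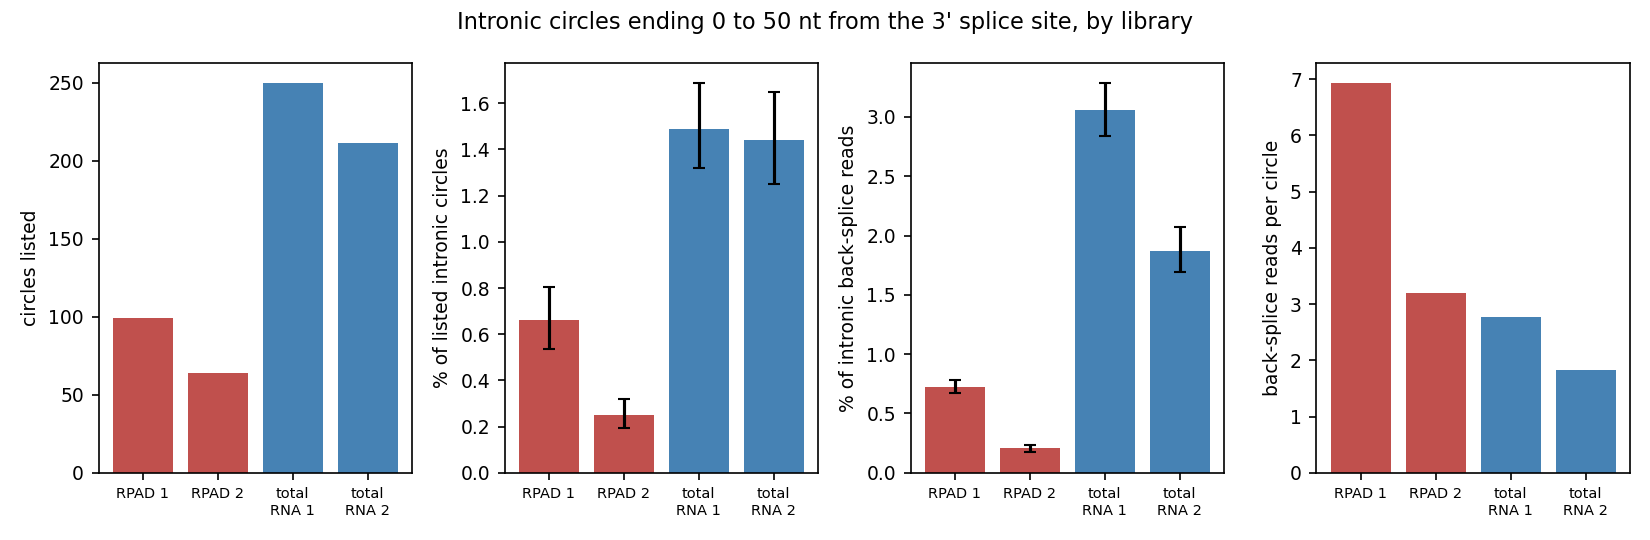
Circles ending 0 to 50 nt from the 3′ end of the intron in each library, as bars from left to right: the number listed, their percent of the listed intronic circles, their percent of intronic back-splice reads, and their back-splice reads per listed circle; error bars are exact 95% intervals. Both RPAD libraries lie below both total RNA libraries in the first 3 panels (99 and 64 circles listed, against 250 and 211), and RPAD 1 is highest in reads per circle at 6.94.

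The ends were spread through the last 50 nt of the intron rather than gathered at 1 place, with 1 exception at the last base. From 1 to 50 nt the circles numbered 102, 100, 111, 104 and 129 in consecutive steps of 10 nt, or 10.9 per nucleotide position. The next 51 positions held 9.43 circles each, and the next 10 alone 103 circles, so such ends went on past the limit at a somewhat lower density. Just inside it, 11 circles ended at 49 nt and 6 at 50 nt, and just outside it, 8 ended at 51 nt and 18 at 52 nt. The last base itself was the position that stood out, with 55 circles, which is 9.15% of the 601 at 1.96% of the positions.

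Branch points of mammalian introns mostly lie between about 18 and 40 nt from the 3′ splice site. That range held 253 of the 601 circles, or 42.1%, and it covers 45.1% of the positions from 0 to 50 nt. Its density of 11 circles per position compares with 9.65 per position from 1 to 17 nt and 12.9 per position from 41 to 50 nt. The range was thus denser than the positions from 1 to 17 nt and less dense than those from 41 to 50 nt. The last base, with 55 circles, was denser than all of these. As circles of 1 intron share their source and 1 intron can give many ends, these counts are a description and were not tested.

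Over libraries, the share of reads in the branch point range varied more than the share of circles. It held 38.4% and 43.8% of the listed circles in RPAD 1 and 2, against 43.6% and 39.8% in total RNA 1 and 2. It held 17.5% and 47.3% of the circles' reads in RPAD 1 and 2, against 35.6% and 31.9% in total RNA 1 and 2. The RPAD libraries lay on either side of total RNA. The mean share of reads was 32.4% ± 21.1 in RPAD and 33.8% ± 2.67 in total RNA (SD, n = 2 each), a difference of -1.36 percentage points (exact two-sided permutation p = 1). Without RPAD 1 the difference was 13.6 percentage points, and without RPAD 2 it was -16.3. Without total RNA 1 it was 0.527, and without the circle of 256 reads it was 3.83.

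The median distance from the intron's end was 25 and 32.5 nt in RPAD 1 and 2, against 26.5 and 21 nt in total RNA 1 and 2. The groups overlapped, and the difference of 5 nt between their means had an exact two-sided permutation p of 0.667.

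**Figure D2:**
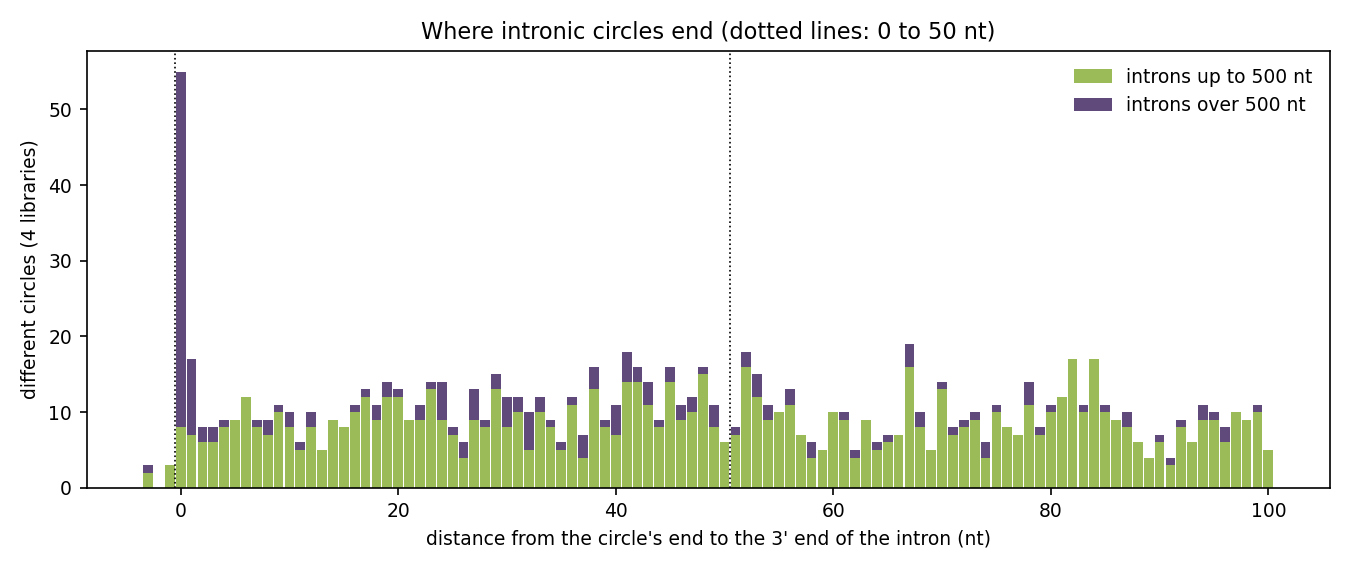
Number of different intronic circles over the 4 libraries by the distance of their 3′ end from the last base of the intron, in nt, with introns up to 500 nt and over 500 nt stacked and dotted lines at the limits of 0 and 50 nt. The column at 0 nt, with 55 circles of which 47 lie in introns over 500 nt, stands above all other positions shown, and circles go on ending at every position shown past 50 nt, with 103 from 51 to 60 nt against 129 from 41 to 50 nt.

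Introns that gave these circles were short. The median intron length over the listed circles was 324 and 154 nt in RPAD 1 and 2, against 185 and 228 nt in total RNA 1 and 2. For intronic circles that ended elsewhere the median was 1327 and 1114 nt in RPAD 1 and 2, against 1278 and 1278 nt in total RNA 1 and 2. The circles near the 3′ end lay in the shorter introns in 4 of 4 libraries, at a mean of 223 ± 74.0 nt against 1249 ± 93.1 nt (SD, n = 4 libraries). This is a description, with no test, since the rule itself favours short introns. Single introns weighed on the RPAD medians. A 324 nt intron gave 29 of the 99 circles in RPAD 1, and a 154 nt intron gave 27 of the 64 in RPAD 2. With 1 circle per intron, the one with most reads, the medians were 170 and 162 nt in RPAD 1 and 2. They were 228 and 273 nt in total RNA 1 and 2.

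Intron length and the rule are tied by arithmetic. Only 190 of all intronic circles, or 0.292%, were shorter than 100 nt, and 87.1% measured at most 300 nt. A circle of over 100 nt in an intron of 150 nt can end nowhere but in the last 50 nt. In introns of up to 150 nt, 120 of 124 circles belonged to the set, and in introns over 150 and up to 200 nt, 189 of 328 did. In introns over 200 and up to 500 nt the set held 149 of 4570 circles, and in longer introns 143 of 60040, or 0.238%. Introns of up to 200 nt thus gave 309 of the 601 circles, or 51.4%. The circles themselves had a median length of 283 and 122 nt in RPAD 1 and 2, against 162 and 207 nt in total RNA 1 and 2, and other intronic circles had medians between 146 and 168 nt.

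The share of listed circles from introns of up to 200 nt was 37.4% and 79.7% in RPAD 1 and 2, against 54.4% and 43.1% in total RNA 1 and 2. Counted by circle, it was the RPAD libraries that differed most from each other. In that count, 29 ends in RPAD 1 came from 1 intron of 324 nt and 27 in RPAD 2 from 1 of 154 nt. Counted by intron, those of up to 200 nt with an end 1 to 50 nt away were 14 of 26 in RPAD 1 and 12 of 20 in RPAD 2. In total RNA 1 and 2 they were 45 of 111 and 41 of 105. For median intron length the difference between RPAD and total RNA was 32.5 nt (exact two-sided permutation p = 1), and without RPAD 1 it was -52.5 nt. Among other intronic circles, introns of up to 200 nt gave 0.0202% and 0.0469% in RPAD 1 and 2, against 0.479% and 0.353% in total RNA 1 and 2. Outside the set, circles of such short introns thus took a smaller share after RPAD, while within it RPAD 1 lay below total RNA and RPAD 2 above. The shares outside rest on 3 and 12 circles in RPAD 1 and 2, against 79 and 51 in total RNA 1 and 2. Of the 79, 18 lay in the mitochondrial model.

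**Figure D3:**
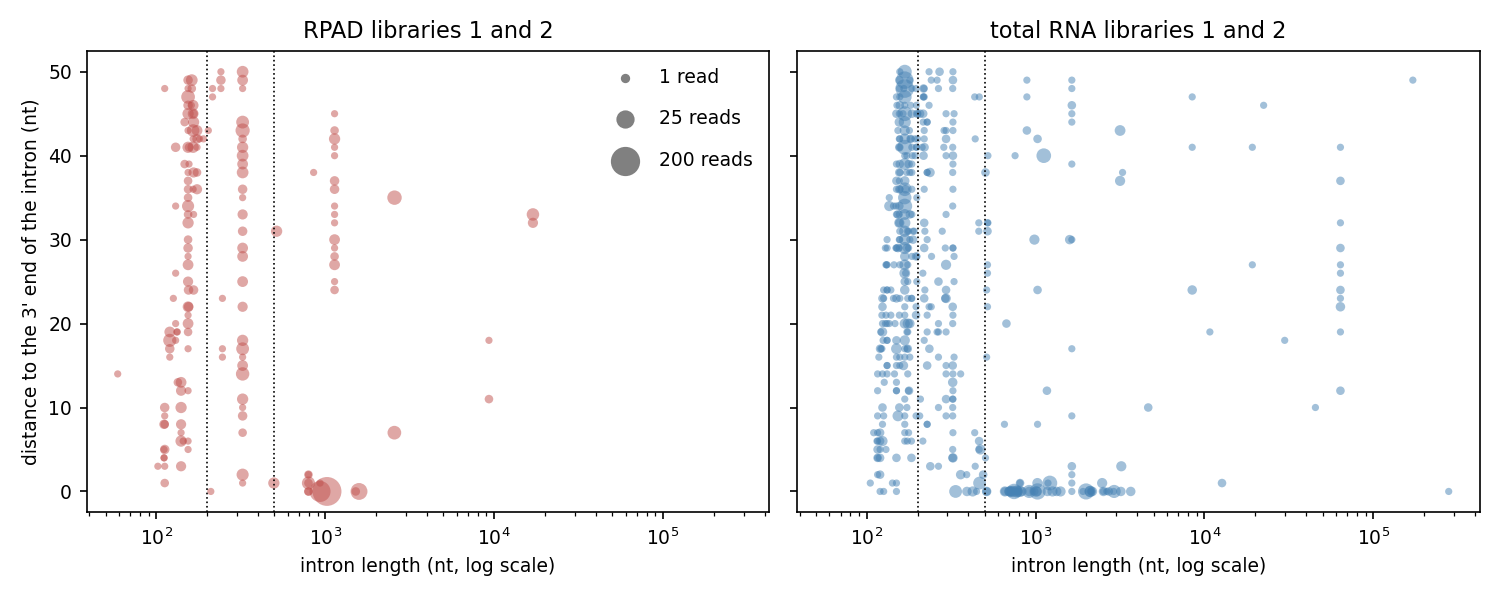
Distance of the circle's end from the last base of the intron (nt) against the length of the intron (nt, log axis), 1 point per circle and library, with the RPAD libraries on the left, the total RNA libraries on the right, point area growing with reads and dotted lines at 200 and 500 nt. Points crowd below 500 nt at all distances in both panels, and the circles at 0 nt lie mostly in introns above 500 nt.

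The 55 circles that ended at the last base spanned their whole intron and lay mostly in longer introns than the rest. Each lay in an intron of its own, the median intron was 982 nt long, and 47 of the 55 introns were over 500 nt. The circles ending 1 to 50 nt away had a median intron of 183 nt. RPAD 1 and 2 listed 5 and 2 whole-intron circles with 361 and 4 reads, against 27 and 23 circles with 126 and 106 reads in total RNA 1 and 2. Total RNA thus listed more of them, while the highest number of reads was in RPAD 1.

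The circle with most reads of all 601 was the whole of a 1024 nt intron at chr3:121153277-121154300 on the + strand, intron 3 of ENSMUST00000029773. It had 256 reads in RPAD 1 and 0 in RPAD 2, against 0 in both total RNA libraries. In RPAD 1 that was 1701 per 1000000 back-splice reads, above the 15.7, 77.2 and 83.4 per 1000000 that a count of 0 allowed in RPAD 2 and in total RNA 1 and 2. The circle was thus high in 1 RPAD library and below detection in the other.

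Similarly, the whole-intron circle of a 931 nt intron at chr15:6739609-6740539 on the + strand, intron 32 of ENSMUST00000061656, had 72 reads in RPAD 1 and 0 in RPAD 2, against 0 in both total RNA libraries. The circle of the whole 1027 nt intron at chr15:99422066-99423092 on the + strand, the first of ENSMUST00000169082, had 0 reads in both RPAD libraries and 0 in total RNA 1, with 26 in total RNA 2. The circle of the whole 1990 nt intron at chr3:54550540-54552529 on the + strand had 25 reads in total RNA 1 and 0 in the other libraries. The circle of the whole 746 nt intron at chr9:44559447-44560192 on the - strand had 21 reads in total RNA 1 and 0 in the other libraries, although circles ending further upstream in this intron had 232 and 6 reads in RPAD 1 and 2, against 5 and 0 in total RNA 1 and 2. All 5 of these circles ended at the last base of the intron, and all were read in 1 library of 4.

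Of the 55 whole-intron circles, 2 were listed in more than 1 library. The circle of the whole 658 nt intron at chrX:35904900-35905557 on the - strand had 0 reads in both RPAD libraries, against 4 and 2 in total RNA 1 and 2. The other 8 circles of this intron had 0 and 20 reads in RPAD 1 and 2, against 0 and 2 in total RNA 1 and 2. The circle of the whole 795 nt intron at chr5:115939502-115940296 on the + strand had 2 and 2 reads in RPAD 1 and 2, against 0 in both total RNA libraries. In 25 of the 55 introns some other circle was listed, and in 8 of them another circle within the last 50 nt. A single read supported 14 of the 55, and 18 had 5 reads or more. No listed exon of an exonic circle, of 12158 compared, had the coordinates of any of the 601 circles.

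Of the 12 circles with the highest mean share of back-splice reads over the 4 libraries, each was listed in 1 library. Beside the 5 whole introns, 5 lay in the mitochondrial model. The other two were an end 1 nt from the intron's end at chr1:59046643-59047855 on the + strand, with 0 reads in both RPAD libraries against 18 and 0 in total RNA 1 and 2, and an end 40 nt away at chr10:85365798-85366875 on the - strand, with 0 reads in both RPAD libraries against 17 and 0 in total RNA 1 and 2.

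Most introns gave 1 end and a few gave many. In 162 of the 245 introns, or 66.1%, there was 1 such circle, and in 11 introns there were 10 or more, which together held 208 circles, or 34.6%. The 5 introns with most ends held 130. In 158 introns no circle was listed with an end further upstream.

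The 168 nt mitochondrial model at chrM:74-241 on the + strand had most, with 37 ends between 6 and 50 nt from its 3′ end. All 283 reads on them were in total RNA 1, and both RPAD libraries and total RNA 2 had 0. The single highest end, 48 nt from the model's end, had 45 reads. A further 18 circles of the same model ended more than 50 nt away, with 219 reads in total RNA 1, so the ends continued across the limit. Ends 48 and 49 nt away had 45 and 35 reads, those 45 and 34 nt away 18 each.

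A 324 nt intron on chromosome 5, chr5:104865596-104865919 on the + strand and the third of ENSMUST00000086833, gave 32 ends between 1 and 50 nt. Their reads summed to 150 in RPAD 1 and 0 in RPAD 2, against 5 and 14 in total RNA 1 and 2. Another 82 circles of the intron ended further upstream, with 460 reads in RPAD 1 and 0 in RPAD 2, against 9 and 8 in total RNA 1 and 2. The RPAD libraries were the highest and the lowest of the 4 for this intron. Its median distance was 26.5 nt and 13 of its 32 ends lay at 18 to 40 nt. Over all its circles, the ends fell in a stretch of 1 to 76 nt and another of 104 to 190 nt from the intron's end, with none listed between them.

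A 154 nt intron of an assembled model, chr1:136095138-136095291 on the + strand, had 27 ends, all in RPAD 2, with 88 reads there and 0 in RPAD 1, against 0 in both total RNA libraries. A 150 nt intron at chr1:71632331-71632480 on the - strand had 17 ends, all in total RNA 2, with 26 reads there and 0 in every other library. These introns, like the mitochondrial one, came from assembled models and were each seen in 1 library.

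The one of the 5 introns with reads in both kinds of RNA and most of them in total RNA was a 156 nt intron at chr2:76546677-76546832 on the - strand, intron 186 of ENSMUST00000011934. Its 17 ends lay 10 to 49 nt from the intron's end, 10 of them at 18 to 40 nt. Their reads summed to 0 and 3 in RPAD 1 and 2, against 21 and 9 in total RNA 1 and 2, so the groups did not overlap. Only 3 further circles of this intron ended upstream of 50 nt.

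**Figure D4:**
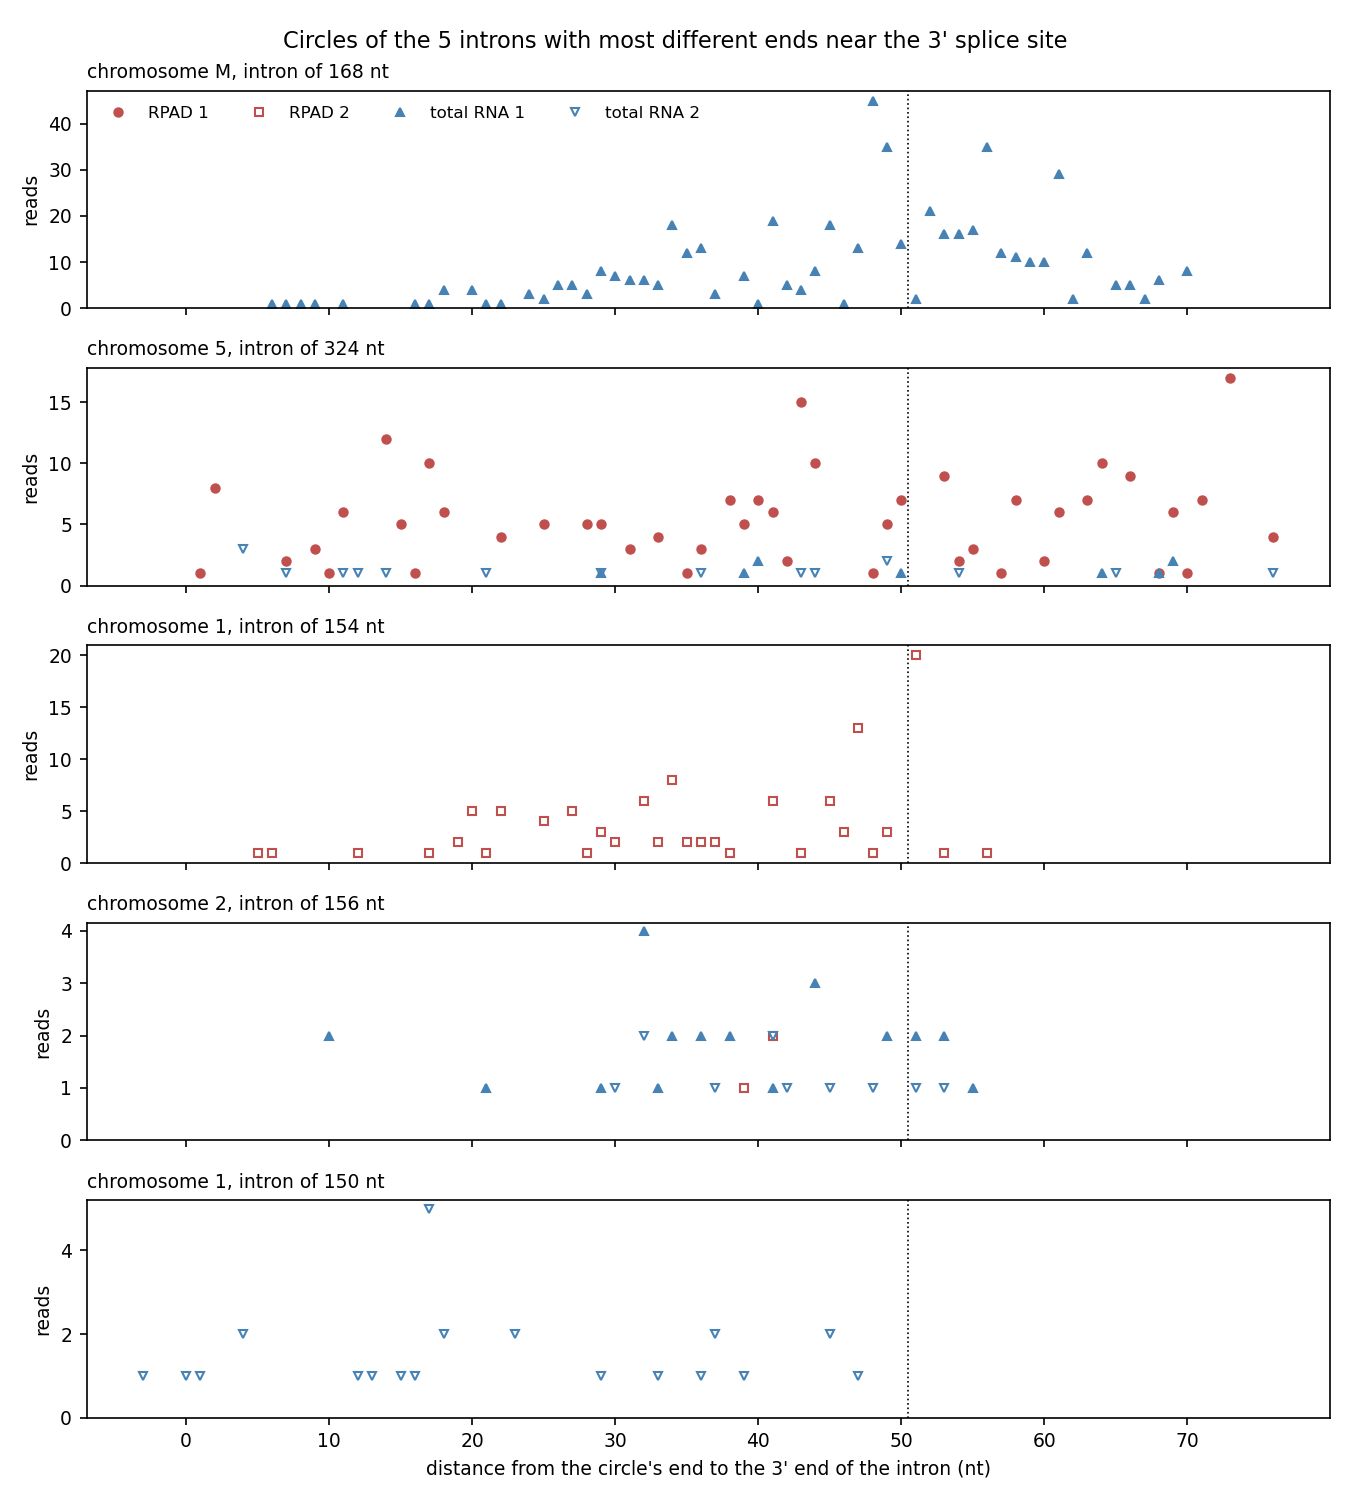
Reads at each end position of the 5 introns with most ends, 1 panel each, by distance from the last base of the intron in nt, with 1 colour per kind of RNA, 1 marker per library and a dotted line at the limit of 50 nt; ends of the chromosome 5 intron beyond 80 nt are not shown. Reads are spread over many positions in every panel, and in 3 panels they come from 1 library.

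In introns over 500 nt, where short circles cannot reach the last 50 nt, 143 circles belonged to the set. Without the 47 whole introns 96 were left, and 50 of these, or 52.1%, ended 18 to 40 nt from the intron's end. That range covers 23 of the 50 positions from 1 to 50 nt, and the share was not tested against it. The 50 circles lay in 24 introns, and none was listed in more than 1 library. RPAD 1 and 2 listed 15 and 3 of them with 40 and 23 reads, against 19 and 13 with 43 and 24 reads in total RNA 1 and 2. The circles lay in 3 introns in each RPAD library, against 6 and 12 introns in total RNA 1 and 2. A few introns supplied many of them: 12 came from a 1135 nt intron at chr7:16580899-16582033 on the - strand, read in RPAD 1 alone, and 9 from a 63838 nt intron at chr19:44310423-44374260 on the + strand, read in total RNA 1 alone. The share in the branch point range was 35.0% of the 143 circles with the whole introns counted, against 44.3% in introns of up to 500 nt. These shares are not alike in make-up. Whole introns were 47 of the 143 circles, but 8 of the 458 in introns of up to 500 nt.

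Few circles recurred between libraries. Of the 601, 580 were listed in 1 library, 19 in 2 libraries, 2 in 3 libraries and 0 in all 4. Those in at least 2 libraries made up 3.49%, against 8.86% of the other intronic circles. Reads per circle, library depth and the share in assembled models (56.9% against 35.3%) differ between these sets, and the difference was not tested. An intron could carry more than 1 model name, as chr7:123968106-123968333 did (PREDICTED.183908.1 and PREDICTED.150756.1). Whether every library was searched against the same assembled models was not tested. The 2 RPAD libraries shared 3 circles, which is 3.03% of the list of RPAD 1 and 4.69% of the list of RPAD 2. The total RNA libraries shared 7 circles, or 2.80% of the list of library 1 and 3.32% of the list of library 2.

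All 3 circles shared by the RPAD libraries came from 1 intron, the 795 nt intron at chr5:115939502-115940296, the first of an assembled model. They ended 0, 1 and 2 nt from its end. In RPAD 1 these ends had 2, 11 and 1 reads and in RPAD 2 each had 2 reads, against 0 for all 3 in both total RNA libraries. The 2 circles found in 3 libraries were ends 41 nt from the end of the chromosome 2 intron and 29 nt from the end of the 324 nt chromosome 5 intron. The first had 0 and 2 reads in RPAD 1 and 2, against 1 and 2 in total RNA 1 and 2. The second had 5 and 0 reads in RPAD 1 and 2, against 1 and 1 in total RNA 1 and 2. Over kinds of RNA, 147 circles were listed after RPAD alone, 441 in total RNA alone and 13 in both. Of the other intronic circles 91.1% were listed in 1 library, so little overlap between lists was not particular to the set.

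Introns seldom recurred either. Of the 245 introns, 14, or 5.71%, gave such a circle in at least 2 libraries, 3 of them in 3 libraries. The remaining 94.3% gave them in 1 library, against 77.1% of the introns of other intronic circles, a difference that was not tested. The RPAD libraries shared 1 intron and the total RNA libraries shared 10, which is 9.01% and 9.52% of the introns of total RNA 1 and 2. One of those 10, the 3164 nt intron at chr2:22805791-22808954 on the - strand, gave 2 different ends, 37 and 43 nt from its 3′ end. Its reads summed to 0 in both RPAD libraries, against 5 and 4 in total RNA 1 and 2, and no other circle was listed in it.

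No circle of the set had enough reads in enough libraries to enter the test of RPAD against total RNA. The filter on low counts asks for reads in at least 2 libraries as well as a minimum total. The circles of 256 and 72 reads had all of them in 1 library. The edgeR quasi-likelihood test, with Benjamini-Hochberg adjustment over all circles tested, took 924 of the 69136 circles past its filter on low counts and called none of them at an adjusted p under 0.05, a share of 0%, although 162 had an unadjusted p under 0.05. None of the 601 circles passed the filter. With no filter all 601 were fitted, 154 with a higher and 447 with a lower value after RPAD, and none had an unadjusted p under 0.05 (smallest adjusted p 0.73). As 580 of the 601 were listed in 1 library, these signs mostly restate which library listed a circle. The median log2 fold change in that fit was -3.30 over the 601 and 1.68 over all 69136 circles. DESeq2 on the same counts called 19 of the 924 circles, a fit that likewise held none of the set.

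With ends summed per intron, ends in the last 50 nt kept apart from other ends, 2 of the 245 introns passed the filter. That edgeR test called 0 of 1383 sums, a share of 0%, with 417 at an unadjusted p under 0.05. The chromosome 2 intron had a log2 fold change of -5.82 (SE 2.60, edgeR adjusted p = 0.199) for RPAD over total RNA. Without RPAD 2 it was -8.41 with an edgeR adjusted p of 0.021, in a fit that called 562 of the 1383 sums, or 40.6%. The 324 nt intron on chromosome 5 had a log2 fold change of 0.30 (SE 2.91, edgeR adjusted p = 0.987). Without RPAD 1, the library that held its 150 reads, it was -7.66 with an edgeR adjusted p of 0.0286, in a fit that called 464 of the 1383 sums, or 33.6%. Without total RNA 1 it was -0.31. In both fits with a lone RPAD library that library had 0 reads for the intron and was assumed to vary as the others do, so the size of these fold changes depends on the prior count.

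The files give each junction a score of 0 to 3, which the labels do not explain. A score above 0 was carried by 55.6% and 87.5% of the circles in RPAD 1 and 2, against 84.4% and 81.0% in total RNA 1 and 2. Among other intronic circles the share was 34.3% and 35.5% in RPAD 1 and 2, against 38.8% and 35.5% in total RNA 1 and 2. The share was higher near the 3′ end of the intron in 4 of 4 libraries, at 77.1% ± 14.6 against 36.0% ± 1.93 (SD, n = 4 libraries; exact paired permutation p = 0.125, the smallest possible). All 55 whole-intron circles had a score above 0, against 35.3% of the 17 circles that ended 1 nt away.

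Single-read circles were 36.4% and 39.1% of the list in RPAD 1 and 2, against 61.6% and 64.5% in total RNA 1 and 2. Other intronic circles had 17.6% and 34.4% in RPAD 1 and 2, against 78.8% and 73.7% in total RNA 1 and 2. The circles near the 3′ end were thus more often single reads than other intronic circles in both RPAD libraries and less often in both total RNA libraries, and over the 4 libraries the exact paired permutation p was 1.

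First introns were frequent among the 601 circles. They held 160 of them, or 26.6%, against 6.12% of other intronic circles, and 123 of the 160 lay outside the mitochondrial model. Counted by intron, 48 of 245, or 19.6%, were numbered first, against 8.74% of the other introns. An exonic circle was listed next to 16 of the 245 introns, or 6.53%, against 462 of the 7614 other introns, or 6.07%. Position in the gene and the share of assembled models differed together between these sets, and their part in each other was not tested.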

How the data were processed

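RNA of differentiated C2C12 cells was sequenced after RPAD (2 libraries) or as total RNA (2 libraries), with 17 PCR cycles, per the labels' protocols. cutadapt, TopHat and Cufflinks 2.2.1 and build mm9 are named in the submitters' processing notes; which program called the back-splices is not stated there. The deposited lists give, per junction, a count of back-splice reads made by the authors, a score and the positions of circle and intron. Intron and circle positions are printed 1-based.

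Distance was counted from the circle's 3′ end to the listed intron end. Exact two-sided permutation tests compared values of libraries, and shares were given with 95% Clopper-Pearson intervals (scipy 1.17.1). Counts were fitted in edgeR 4.0.16 (quasi-likelihood, TMM, minimum count 5, minimum total 10) over all circles, and over intronic circles summed per intron; DESeq2 1.42.0 was an alternative. The edgeR steps were tested on simulated data. Circles and introns named in the text were the 12 circles with the highest mean share of reads, those listed in most libraries and the 5 introns with most ends; the introns and circles named beyond these (on chromosomes 2, 5, 7, 19 and X) were chosen after their values were seen. The members and lists were chosen with earlier results of these data known. Neither intron sequences nor gene symbols were analysed here.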

Additional observations from a re-analysis of the deposited data

How the results depend on the processing

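After RPAD, the shares of intronic reads and of intronic circles were lower on average in every alternative run for them. Reads per circle and median distance were higher on average in every one run for those. Alternatives included other minimum reads, equal depth, limits of 30 or 100 nt and leaving out 1 library. Chosen after seeing the data were leaving out mitochondrial circles, whole introns, or long or short introns, and keeping only junctions with score 0. At score 0 the groups overlapped. The share of intronic circles there was 0.449% and 0.0485% in RPAD 1 and 2, against 0.385% and 0.428% in total RNA 1 and 2. The circles listed there were 44 and 8 in RPAD 1 and 2, against 39 and 40 in total RNA 1 and 2. Sizes were less stable: leaving out 1 library gave 0.902 to 4.64 for reads per circle (2.77) and 1.25 to 8.75 nt for median distance (5), and at equal reads the difference in reads per circle was 0.0579. The share of intronic reads, -2.00 percentage points, was -13.8 at a minimum of 5 reads and -15.8 within introns up to 500 nt. At 5 reads it was 0.744% and 0.210% in RPAD 1 and 2, against 21.5% and 7.06% in total RNA 1 and 2. The mitochondrial model enters both values: in introns up to 500 nt it held 283 of the set's 484 reads in total RNA 1. Without mitochondrial circles the main difference was -1.40. The number of listed circles, -149, was -34.5 at a minimum of 2 reads and 5 at a minimum of 5 reads (31 and 18 in RPAD 1 and 2, against 30 and 9 in total RNA 1 and 2), and otherwise kept its direction. The share of reads ending at 18 to 40 nt, -1.36 percentage points, had no stable direction: leaving out 1 library gave -16.3 to 13.6, at least 2 or 5 reads gave 2.46 and 16.3, 1 circle per intron gave 4.09, and leaving out the mitochondrial circles, introns up to 500 nt or the circle of 256 reads gave 0.240, 20.9 and 3.83. Median intron length, 32.5 nt, likewise gave -52.5 to 118 when 1 library was left out, -0.250 and -248 at 2 and 5 reads, -84.5 for 1 circle per intron, -262 in introns over 500 nt and -14 in shorter ones. The cause of these reversals was not tested. The log2 fold change of the 324 nt chromosome 5 intron, 0.30, ranged from -7.66 to 1.36 when 1 library was left out, and that of the chromosome 2 intron, -5.82, from -8.41 to -4.81. With the replicate number as a block they were -2.69 and -6.38. edgeR called 0 of the 601 circles under the replicate block and in every other fit, but only the unfiltered fit held any of them. Over all circles, edgeR calls numbered 184 without RPAD 1 and 214 without RPAD 2, against 0 with all libraries. No label ties same-numbered libraries, and the correlation of their deviations, 0.0524 over circles and 0.101 over introns with 2 pairs, does not settle whether they are paired. Depth is a limit, as 1 read is the whole support of most circles listed in total RNA.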
